A study of Bos taurus with 41 samples.

Results

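The major histocompatibility complex (MHC) class II genes of cattle were taken by symbol: every gene whose symbol begins with BOLA-D or BLA-D, together with CD74 and CIITA, with at most the 10 of highest mean count kept per table. The conceptus table held 5 members among its 16149 genes: BLA-DQB (ENSBTAG00000019588), BOLA-DMA (ENSBTAG00000015730), CD74 (ENSBTAG00000015228), BOLA-DRA (ENSBTAG00000010645) and BOLA-DQB (ENSBTAG00000021077). The endometrial table held 10 members among its 27270 genes, the same 5 and BOLA-DMB (ENSBTAG00000012451), CIITA (ENSBTAG00000020649), BOLA-DQA5 (ENSBTAG00000038128), BOLA-DOB (ENSBTAG00000047707) and BOLA-DOA (ENSBTAG00000006490). A further pair of symbols, BOLA-DYA and BOLA-DYB, matched but fell outside the limit of 10, with mean counts of 9 and 0.833 against 38.3 for BOLA-DOA, the last gene kept. All 5 conceptus members passed the filter on low counts. RefSeq places the BOLA and BLA genes on chromosome 23, CD74 on chromosome 7 and CIITA on chromosome 25, lists BLA-DQB as a synonym of BOLA-DQB1, and sets BOLA-DQB, BOLA-DQA5 and BOLA-DQB1 side by side.

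Class II molecules are pairs of an alpha and a beta chain that hold peptides from ingested proteins at the surface of antigen presenting cells, where CD4+ T cells read them. CD74, the invariant chain, occupies the groove of a new molecule, DM exchanges its remnant for peptides, and DO restrains DM. CIITA is the coactivator that switches the whole group on, in many cells in answer to interferon gamma, and trophoblast is known for keeping class II expression low. The DQ genes of cattle vary between haplotypes in sequence and in number.

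The study asked how Day 16 conceptuses of different origin and the endometrium affect each other during 12 h of culture in RPMI medium. IVD conceptuses were recovered after artificial insemination of Angus-Holstein heifers, and IVP conceptuses came from embryos made in vitro with semen of the same Angus bull and transferred to recipient heifers of that cross. Sections were cultured alone (mono-culture; 8 IVD and 5 IVP libraries) or on intercaruncular explants of Day 16 cyclic heifers (co-culture; 9 IVD and 7 IVP libraries). The endometrial libraries used here were 12 explants of 7 uteri that had carried an IVP conceptus section, and no explant without a conceptus was analysed here. Sections are not independent animals: the 29 conceptus libraries came from 13 conceptuses, 11 of them in both cultures, conceptuses 23, 24, 26, 47 and 62b gave a pair of co-culture sections each, and conceptuses 62a and 62b grew in one recipient. The p-values below measure the spread between libraries.

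Counted reads per library ranged from 58583647 to 104436922 in the conceptus and from 24593699 to 84030248 in the endometrium, and all levels are read counts scaled to library size (CPM) after TMM scaling within each table. A count of 3 reads, taken as the floor, equalled 0.0281 to 0.0677 CPM in the conceptus. The labelled tissues carried their markers: TKDP1, a trophoblast protease inhibitor, averaged 20851 CPM in the sections and 0.241 CPM in the explants, and DCN, the stromal proteoglycan decorin, averaged 0.798 and 3088 CPM. In such bulk samples fewer cells of a type and less RNA per cell cannot be told apart.

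BLA-DQB, a beta chain of the DQ molecule, was the 1 member past the test in co-culture against mono-culture, averaged over both conceptus types, and its level was higher in each IVD conceptus on endometrium but, by a large amount, in only 1 IVP conceptus. In IVD mono-culture it ranged from 0.0801 CPM through a median of 0.878 to 2.01 CPM, a mean of 1.08 ± 0.705 (SD, n = 8). In IVD co-culture the range was 1.372 to 9.78 CPM around a median of 4.46, a mean of 4.34 ± 2.40 (SD, n = 9). Of the co-culture sections 7 of 9 lay above the highest mono-culture section and 5 of 8 mono-culture sections lay below the lowest co-culture section, so the groups overlapped only partly. The IVP mono-culture levels were 0.138 CPM in conceptus 24, 0.416 in 23, 0.0342 in 62a, 0 in 62b and 0.103 in 37. In IVP co-culture the lowest of 7 sections was 0.0288 CPM, the median 0.157 and the highest 12.2. Both high IVP values belonged to conceptus 23, at 7.44 CPM on uterus 14 and 12.2 CPM on uterus 39, while the other 5 sections stayed at or below 0.309 CPM.

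**Figure D1:**
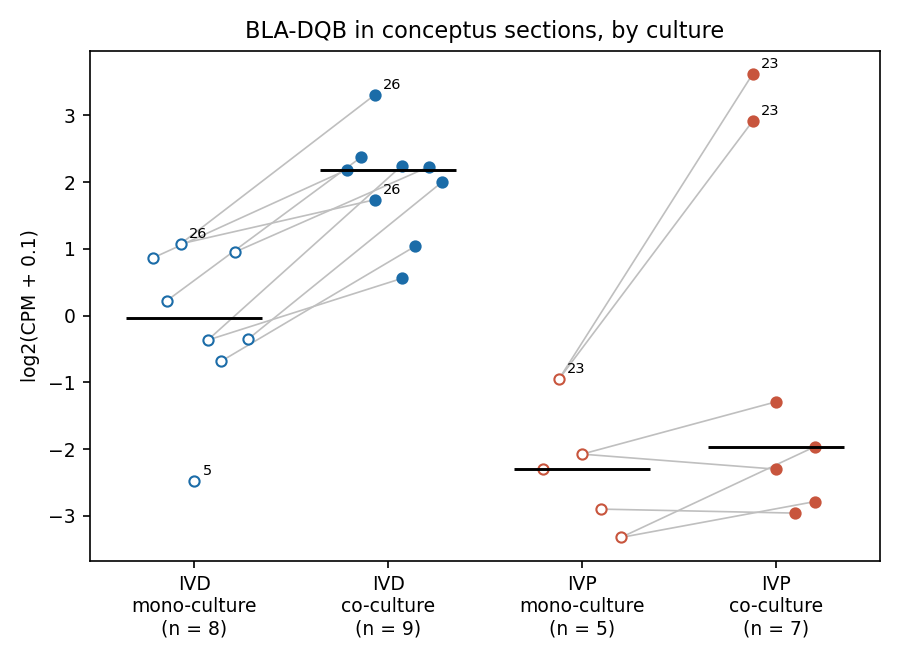
BLA-DQB in each conceptus section as log2(CPM + 0.1), by culture group; open points are mono-culture, filled points co-culture, black bars the group medians, and grey lines join sections of one conceptus. The lines of the IVD conceptuses all climb, whereas in IVP tissue only conceptus 23 reaches the IVD co-culture range, at 7.44 and 12.2 CPM.

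Within one conceptus the change could be read without differences between conceptuses. All 7 IVD conceptuses with both cultures had more BLA-DQB on endometrium, by a mean of 1.81 ± 0.448 (SD, n = 7) on the log2 scale and by between 2.50-fold in conceptus 66 and 5.70-fold in conceptus 71. Of all genes tested 7.19% were higher in every one of these 7 conceptuses. Among the 4 IVP conceptuses, conceptus 23 went from 0.416 to a mean of 9.82 CPM, a 23.6-fold difference, conceptus 24 from 0.138 to 0.206 CPM, 62b from 0 reads to 0.101 CPM and 62a from 0.0342 to 0.0288 CPM. The last 3 held between 0 and 29 reads per library, so only conceptus 23 showed a large difference.

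Averaged over both conceptus types, BLA-DQB was more abundantly expressed in co-culture by 3.19 ± 0.78 (SE) on the log2 scale (95% interval 1.66 to 4.72), with an adjusted p of 0.00696 in edgeR's quasi-likelihood test with Benjamini-Hochberg adjustment over all 15942 genes. It was the 1 member of 5 past the threshold of 0.05, beside 18.9% of all genes in that comparison (9.16% higher and 9.69% lower), so the members' share was close to that of all genes. The call rested on conceptus 23: without it the difference was 1.49 with an adjusted p of 0.05004, just over the threshold. With the conceptus as a block, which compares sections of one conceptus, it was 2.10 ± 0.47 (SE), adjusted p = 0.0180 in edgeR, beside 13.4% of all genes called and 6.32% higher.

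In IVD tissue alone the difference was 2.01 ± 0.90 (SE) with an edgeR adjusted p of 0.172, and no member passed where 6.33% of all genes did (3.11% higher and 3.22% lower), although BLA-DQB and BOLA-DRA had unadjusted p-values of 0.0344 and 0.0266. The BLA-DQB call changed with the fit: it passed without conceptus 23 (2.03, adjusted p = 0.0312 in edgeR), with only the IVD libraries in the fit (2.04, adjusted p = 0.0244) and in limma voom with conceptus fitted as a random term (2.17, adjusted p = 0.0172), and under the conceptus block it stood at 1.88 ± 0.46 (SE), adjusted p = 0.0503. That block also took the count of all genes called in this comparison from 1009 to 206, which is 1.29% of those tested, with 0.602% higher.

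The IVP difference was 4.37 ± 1.28 (SE), with an unadjusted p of 0.00192 and an edgeR adjusted p of 0.142, equal to the smallest there. No gene passed in edgeR (0%), with 2914 genes under an unadjusted p of 0.05, and DESeq2 called 502 genes but no member. Without conceptus 23 the BLA-DQB difference was 0.94 with an adjusted p of 0.661. The IVP change exceeded the IVD change by 2.36 ± 1.42 (SE; 95% interval -0.41 to 5.13), adjusted p = 1.00 in edgeR, so the changes were not shown to differ; no gene passed this test in edgeR or DESeq2, with 281 under an unadjusted p of 0.05, and without conceptus 23 the sign turned, to -1.09.

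BLA-DQB levels were mostly lower in IVP than in IVD sections, though not past the test. In mono-culture 7 of 8 IVD sections lay above every IVP section, the exception being conceptus 5 with 7 reads, and the difference of IVP from IVD tissue was -2.94 ± 1.18 (SE) with an unadjusted p of 0.0189 and an edgeR adjusted p of 1.00. No gene passed in that comparison in edgeR (0%; 331 under an unadjusted p of 0.05) and 1 did in DESeq2. In co-culture 5 of 7 IVP sections lay below every IVD section and the other 2 were both of conceptus 23, one among the high IVD values and one above every IVD section, for a difference of -0.58 ± 0.90 (SE), adjusted p = 0.807 in edgeR, beside 4 genes called (0.0251%; 0.0188% higher and 0.00627% lower). In the fit without conceptus 23, from a set of 13 that left out each conceptus in turn, the difference of -5.03 passed. Its adjusted p was 0.0144 in edgeR, beside 19 genes called. The IVP sections then averaged 0.129 ± 0.113 CPM (SD, n = 5). Conceptus 23 held the only 2 IVP sections within or above the IVD levels, so leaving it out was bound to separate the groups. These 5 sections were not independent: conceptuses 24 and 62b gave a pair each, and conceptuses 62a and 62b shared a recipient. The fit counted every section as a separate replicate, IVD pairs included. Its p-value therefore measures the spread between sections, not between conceptuses.

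Sections of one conceptus laid on different uteri also differed in BLA-DQB. Conceptus 26 had 3.23 CPM on uterus 14 and 9.78 on uterus 39, conceptus 24 had 0.103 and 0.309, and conceptus 23 had 7.44 and 12.2, so all 3 conceptuses laid on both uteri were higher on uterus 39, by 3.03-fold, 2.99-fold and 1.64-fold. Conceptus 47 had 1.372 CPM on uterus 19 and 4.64 on uterus 54, and conceptus 62b had 2 reads on uterus 69 and 12 on uterus 70. These are single sections with no replicate of a conceptus on a uterus, so no test was made. The explants under the same conceptuses differed less between uteri 14 and 39, with BLA-DQB on uterus 39 at 1.08-fold of uterus 14 under conceptus 23 and 1.21-fold under conceptus 24. Between uteri 69 and 70 the explants differed more, uterus 70 being at 3.21-fold of uterus 69 under conceptus 62b and 1.99-fold under 62a.

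BOLA-DQB, the neighbouring DQ beta gene, was counted at very few reads. IVD mono-culture sections held 0 to 10 reads, 45 in all, and IVD co-culture sections 0 to 21 reads, 90 in all, while the 5 IVP mono-culture sections held 1, 0, 1, 0 and 4 reads and the 7 IVP co-culture sections 6 in all. The sections with more than 4 reads were all IVD. In co-culture the IVP difference from IVD tissue was -3.51 ± 1.02 (SE), unadjusted p = 0.00176 and adjusted p = 0.188 in edgeR, and BOLA-DQB did not pass in any other comparison, at 1.16 ± 0.81 (SE) for IVD co-culture and 0.41 ± 0.81 for the average. Reads of near-identical DQ genes can be split between copies in counting, so the reads of both were also summed as one gene, which left the average difference at 3.11 ± 0.77 (SE), adjusted p = 0.00744 in edgeR.

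BOLA-DRA, the alpha chain of the DR molecule, was at or near 0 in tissue cultured alone. Of the IVD mono-culture sections 6 of 8 had no read and the others 5 and 16, and of the IVP mono-culture sections 3 of 5 had none and the others 2 and 4. On endometrium 2 of 9 IVD sections had no read and the highest had 33, a median of 0.118 CPM and a maximum of 0.407, and 2 of 7 IVP sections had none and the highest had 10, a median of 0.0451 CPM and a maximum of 0.107. The groups overlapped at 0 reads. All 4 IVP conceptuses and 6 of 7 IVD conceptuses were higher on endometrium by the mean of log2 values, the exception being conceptus 26. The IVP rises rested on few reads, conceptus 62a going from 0 to 2 and 62b from 0 to 2 and 0. Conceptus 23 went from 2 reads to 8 and 0, a log2 change of 0.043, and conceptus 24 from 0 to 5 and 10. Of all genes 10.1% were higher in all 4 IVP conceptuses. The average difference was 2.05 ± 0.85 (SE), adjusted p = 0.0895 in edgeR, and it passed with 1 factor of unwanted variation removed (2.23, adjusted p = 0.0356) and in limma voom with conceptus fitted as a random term (2.19, adjusted p = 0.0429).

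CD74, the invariant chain, was higher on endometrium in most conceptuses, but its group comparison turned on 1 mono-culture library. In IVD mono-culture its level ran from 0.0288 CPM through a median of 0.117 to 4.45 CPM, and in IVD co-culture from 0.132 through 0.770 to 2.06 CPM. The highest value of all sections was a mono-culture one, 430 reads in conceptus 26, while 5 of 8 mono-culture sections lay below every co-culture section. In IVP mono-culture the levels were 0.0826, 0.191, 0.582, 0.186 and 1.13 CPM in conceptuses 24, 23, 62a, 62b and 37, and in IVP co-culture they ran from 0.217 through 0.392 to 1.18 CPM. Within conceptuses 6 of 7 IVD and 3 of 4 IVP were higher on endometrium, from 2.03-fold in 62b to 7.42-fold in conceptus 22 where the mono-culture section held more than 3 reads, while conceptus 26 went from 4.45 to a mean of 0.814 CPM and 62a from 0.582 to 0.490. Over all libraries the IVD difference was 0.29 ± 0.76 (SE), adjusted p = 0.861, and the average 0.30 ± 0.60, adjusted p = 0.768 in edgeR. Without the mono-culture section of conceptus 26 they became 2.61 (adjusted p = 0.0158) and 1.45 (adjusted p = 0.0223), both past the threshold in edgeR. As that section held the highest CD74 value of all, leaving it out was bound to raise both differences. The fit without it called 637 of all genes in the IVD comparison. Of 42 fits that left out a library or a conceptus, 2 gave the CD74 call in each of these comparisons.

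Some other listed genes, picked here after their values were seen, were also at their highest of all 29 sections in that section of conceptus 26, among them COL1A2, a collagen chain, at 23.2 CPM against at most 8.57 elsewhere, IRF8, a leukocyte transcription factor, at 5.02 against 2.59, and the B cell receptor chains CD79A at 0.321 against 0.182 and CD79B at 1.01 against 0.904. BLA-DQB was not raised there in the same way, at 2.01 CPM against 1.84 CPM in conceptus 66. The part of these genes in the CD74 value was not tested.

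BOLA-DMA, one chain of the peptide exchanger DM, had overlapping levels in all cultures. It averaged 0.871 ± 0.413 CPM (SD, n = 8) in IVD mono-culture, 1.243 ± 0.874 (n = 9) in IVD co-culture, 0.848 ± 0.217 (n = 5) in IVP mono-culture and 0.961 ± 0.393 (n = 7) in IVP co-culture. All 4 groups overlapped, conceptus 66 on uterus 38 being the highest at 2.70 CPM and conceptus 47 on uterus 54 the lowest at 0.215. The average difference with endometrium was 0.35 ± 0.32 (SE; 95% interval -0.27 to 0.97), adjusted p = 0.470 in edgeR, and no comparison passed.

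**Figure D2:**
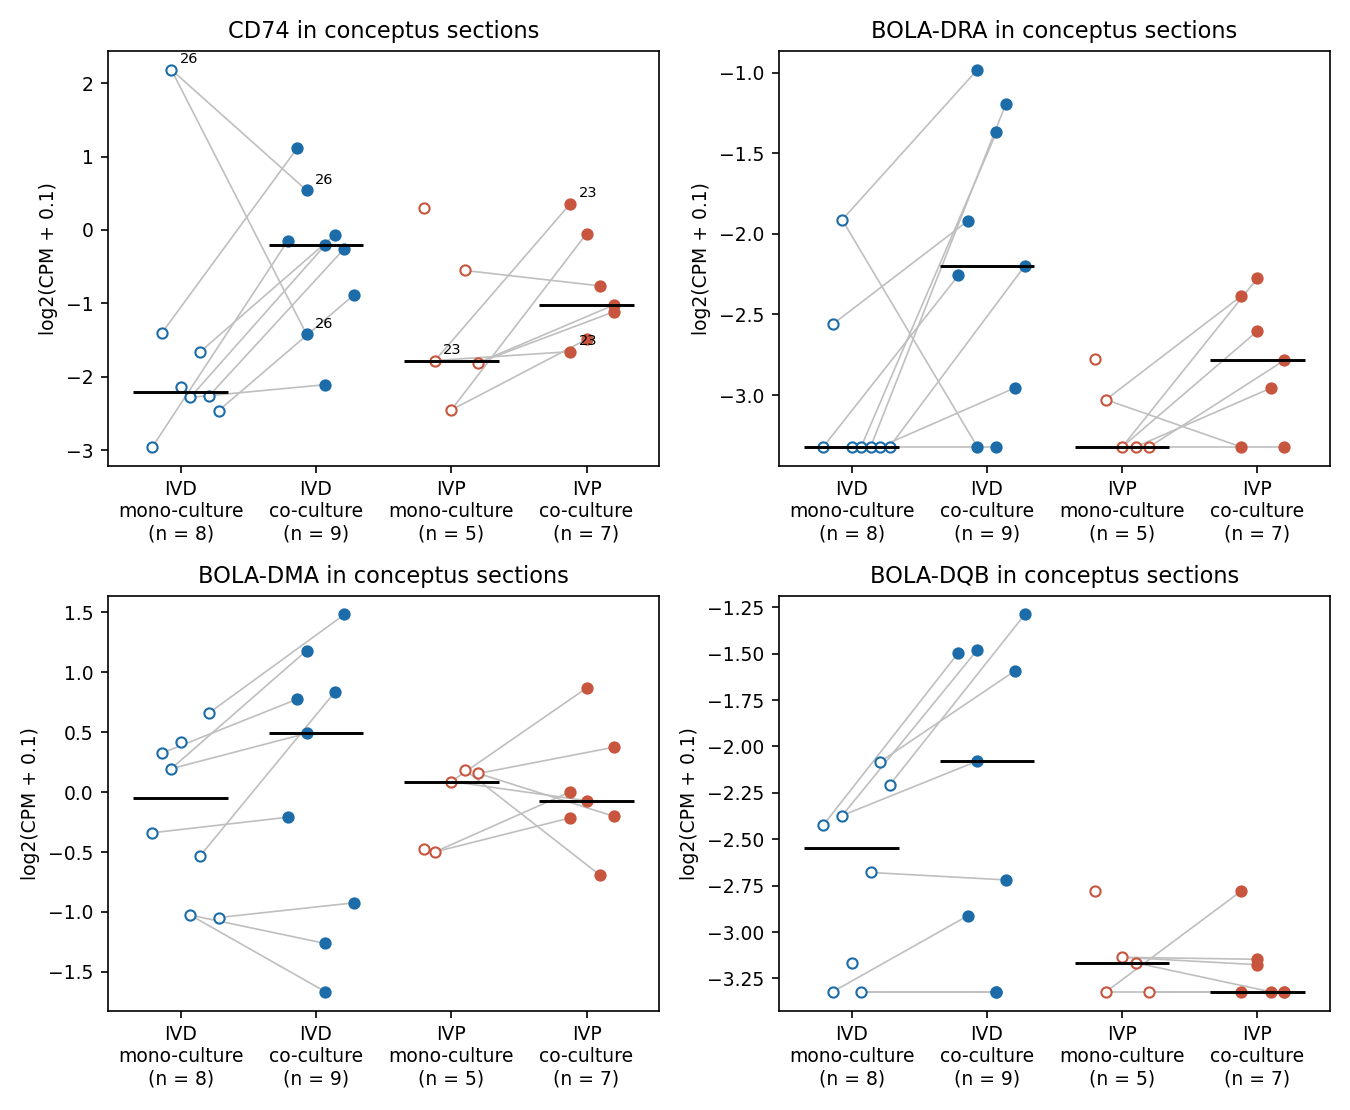
CD74, BOLA-DRA, BOLA-DMA and BOLA-DQB in each conceptus section as log2(CPM + 0.1), with symbols, bars and lines as for BLA-DQB. CD74 shows the mono-culture section of conceptus 26 at 4.45 CPM above all others, BOLA-DRA has 6 of 8 IVD mono-culture sections at 0 reads, and BOLA-DQB has at most 4 reads in IVP tissue.

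**Figure D3:**
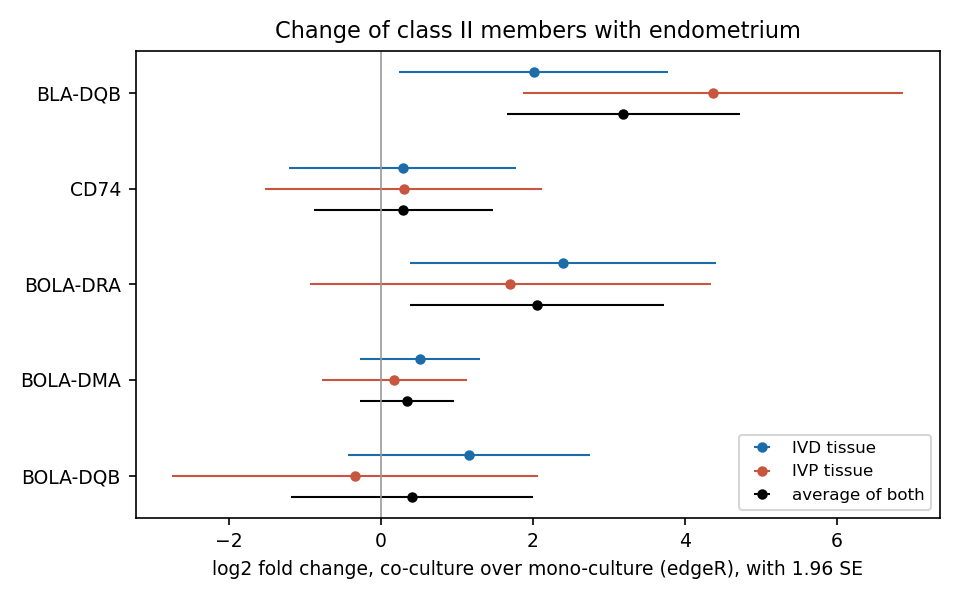
Log2 fold change of each member, co-culture over mono-culture, from edgeR for IVD tissue, IVP tissue and the average of both, with bars for the 95% interval. The average for BLA-DQB, 3.19, has an interval from 1.66 to 4.72, and the intervals of CD74, BOLA-DMA and BOLA-DQB all include 0.

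CIITA, BOLA-DMB, BOLA-DQA5, BOLA-DOA and BOLA-DOB were not analysed in the conceptus, whose table holds only genes with a mean count of at least 2.48. Regulators of class II transcription were counted there, and in the average comparison 0 of 19 were higher and 2 lower: RFX5, a subunit of the complex that binds class II promoters, by -0.64 ± 0.21 (SE), adjusted p = 0.0348, and JAK2, a kinase of the interferon gamma receptor, by -0.55 ± 0.16, adjusted p = 0.0162 in edgeR. Of all genes 9.16% were higher and 9.69% lower in that comparison, so the regulators' share lowered was near that of all genes. RFX5 averaged 9.24 and 7.95 CPM in IVD and IVP mono-culture and 5.71 and 5.28 CPM in co-culture. The kinase JAK1, the repressor EZH2 and the receptor chain IFNGR1 averaged 82.0, 62.1 and 37.5 CPM over all sections and did not pass. RFX5 lost its call in 16 of 42 fits that left out a library or a conceptus, and JAK2 in 1. With the conceptus as a block RFX5 was at -0.68 with an adjusted p of 0.0553. The list's median difference was -0.09 on the log2 scale, where that of all genes was -0.04.

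Genes of class II processing, loading and turnover gave 4 higher and 0 lower of 14 in the average comparison, beside 9.16% of all genes higher and 9.69% lower. LGMN, an endosomal protease, was higher by 0.63 ± 0.22 (SE), adjusted p = 0.0402, and CD63, a late endosome tetraspanin, by 0.39 ± 0.14, adjusted p = 0.0471 in edgeR. AP2M1, an adaptor subunit of clathrin-mediated uptake, was higher by 0.62 ± 0.14, adjusted p = 0.00498, and MIF, a cytokine that binds CD74, by 0.70 ± 0.17, adjusted p = 0.00632 in edgeR. All 4 have general roles outside class II, and the cathepsins CTSD, CTSL and CTSB, at mean levels of 2185, 768 and 636 CPM, did not pass. The calls of LGMN and CD63 were lost in 20 and 26 of 42 such fits, those of AP2M1 and MIF in none, and with the conceptus as a block CD63 was at 0.32 with an adjusted p of 0.0748. The list's median was 0.19. Partners of class II at the T cell contact were sparse, with 4 of 11 tested and none past the threshold in edgeR or under an unadjusted p of 0.05, ICOSLG averaging 13.3 CPM, CD40 0.947, CD80 0.462 and CD274 0.0697, and a median of -0.85. In the IVD comparison none of these lists had a call in edgeR, with 4, 3 and 0 genes under an unadjusted p of 0.05, where 3745 of all 15942 genes were and 6.33% were called, and medians of 0.03, 0.12 and -0.29 beside -0.02 for all genes.

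No list of immune cell markers had a call. Of the antigen presenting cell markers 12 of 25 were in the conceptus table, PTPRC, CSF1R and C1QA not among them, and none passed in any comparison in edgeR. In the average comparison 1 of the 12 had an unadjusted p under 0.05, MRC1, the macrophage mannose receptor, at 1.395 with an unadjusted p of 0.0344 and an adjusted p of 0.117 in edgeR. PTPRC is the common leukocyte antigen, CSF1R the macrophage growth factor receptor and C1QA a complement chain of macrophages. The summed level of the 12 antigen presenting cell markers found ran from 76.2 to 165 CPM in IVD mono-culture and 55.6 to 95.5 in IVD co-culture. In IVP tissue it was 73.9 to 136 CPM in mono-culture and 51.1 to 119 in co-culture. AIF1, of macrophages, and FLT3, of dendritic cell precursors, averaged 23.9 and 15.0 CPM over all sections. T and NK cell markers (8 of 16 tested) had no call either, and none with an unadjusted p under 0.05 on average. Of endometrial markers 15 of 22 were tested, with 0 higher and 1 lower in the average comparison (9.16% and 9.69% of all genes), LUM, the stromal proteoglycan lumican, at -2.70 ± 0.85 (SE), adjusted p = 0.0270 in edgeR, and at -1.32 with an adjusted p of 0.259 without the mono-culture section of conceptus 23. The sum of these 15 markers ran from 38.4 to 247 CPM in IVD mono-culture and 42.7 to 245 in IVD co-culture. It was 60.8 to 223 CPM in IVP mono-culture and 48.4 to 128 in IVP co-culture. In the explants the sum of all 22 was 4712 to 18135 CPM, which cannot be set against it, since the 15 and the 22 are unlike sets of genes. The sums in the sections include genes counted without endometrium, such as COL1A1 and FOXA2 at means of 43.1 and 19.8 CPM in IVD mono-culture. They therefore do not measure endometrial tissue alone. Of the 3 red blood cell genes tested 2 were called: HBA and HBM, alpha-type globins, were higher by 3.38 ± 0.59 (SE), adjusted p = 0.000976, and 2.79 ± 0.63, adjusted p = 0.00455, in edgeR, although HBM stood at an adjusted p of 0.0713 with the conceptus as a block, and HBA had a median of 0.902 CPM in IVD mono-culture and 33.3 on endometrium in that tissue. The third, ALAS2, an enzyme of haem synthesis in red cell precursors, stood at -0.76 ± 0.70 (SE), adjusted p = 0.473 in edgeR. In conceptus 23 HBA was 0.675 CPM alone, 2.66 on uterus 14 and 24.5 on uterus 39. The part of such cells in the BLA-DQB difference was not tested.

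In the explants every member was counted in all 12 libraries. CD74 ran from 167 CPM through a median of 451 to 915, a mean of 466.1 ± 203 (SD, n = 12), and BOLA-DRA from 77.4 through 239 to 516, a mean of 244 ± 118. BLA-DQB ran from 37.2 through 120 to 271, a mean of 116 ± 67.8, and BOLA-DQB from 1.11 through 4.39 to 10.2, a mean of 5.15 ± 2.56. The explant of uterus 70 that carried conceptus 62b was the highest for CD74, BOLA-DRA and BLA-DQB, and the lowest came from uterus 17 for CD74 and BOLA-DRA and from uterus 38 for BLA-DQB. BOLA-DQA5, a DQ alpha gene, averaged 5.21 ± 3.44 CPM with 3 reads in the explant of uterus 15, at its floor, and between 58 and 575 reads in the other 11. The exchanger chains BOLA-DMB and BOLA-DMA averaged 38.1 ± 19.2 and 5.81 ± 2.10 CPM, and their modulators BOLA-DOB and BOLA-DOA 1.28 ± 0.939 and 0.738 ± 0.508 CPM. CIITA averaged 8.49 ± 3.75 CPM, from 3.03 through 8.45 to 15.7, both uterus 17 explants being the lowest and an explant of uterus 70 the highest.

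**Figure D4:**
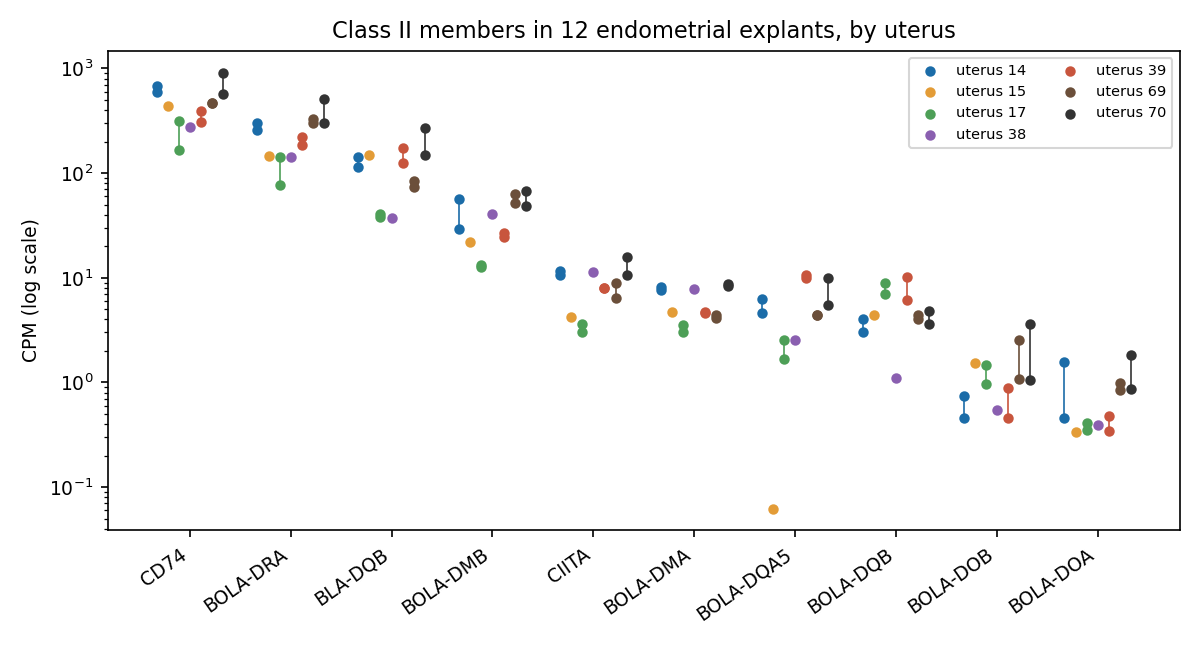
Class II members in the 12 endometrial explants in CPM on a log scale, coloured by the 7 uteri, with lines joining explants of one uterus. An explant of uterus 70 lies at the top for CD74, at 915 CPM, explants of uterus 17 at the bottom for CIITA, and the explant of uterus 15 falls to 0.0623 CPM for BOLA-DQA5.

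A crossed part of the design, conceptuses 23 and 24 on uteri 14 and 39 and conceptuses 62a and 62b on uteri 69 and 70, let the uterus and the conceptus be tested in 8 explants with 2 residual degrees of freedom. For the uterus 6 of 10 members had an unadjusted p under 0.05, the smallest 0.00550 for BLA-DQB and 0.0132 for BOLA-DMA, but no member and no gene (0%) passed after adjustment in edgeR, where 2711 of 17149 genes had an unadjusted p under 0.05. CD74 was lower on uterus 39 than on uterus 14, at 310 against 674 CPM under conceptus 23 and 396 against 600 under conceptus 24, whereas BOLA-DQB stood at 6.18 against 3.01 and 10.2 against 4.02 CPM. Between uteri 69 and 70 BLA-DQB stood at 74.1 against 147 CPM under conceptus 62a and 84.5 against 271 under 62b. The conceptus laid on the explant gave no member an unadjusted p under 0.05, the smallest being 0.102 for BLA-DQB, and no gene passed (0%; 438 under an unadjusted p of 0.05, edgeR).

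Section and explant of the same well could be set side by side in 7 IVP cultures, with the limit that the tables were aligned and normalized separately. The section's CD74 was 0.0322% to 0.381% of the explant's CPM with a median of 0.0772%, and BOLA-DRA 0% to 0.0486%. BLA-DQB had a median of 0.0727% and reached 6.46% and 9.82% in the sections of conceptus 23, whose CD74 in the same libraries was 0.0322% and 0.381%. BOLA-DMA lay between 9.17% and 36.9%. BOLA-DMA thus stood at a higher percent of the explant than CD74 and BOLA-DRA in all 7 cultures, and BLA-DQB stood far above CD74 in those of conceptus 23. In the other sections BLA-DQB and CD74 stood at similar percents, 0.0388% to 0.179% and 0.0428% to 0.144%, with as few as 2 BLA-DQB reads.

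**Figure D5:**
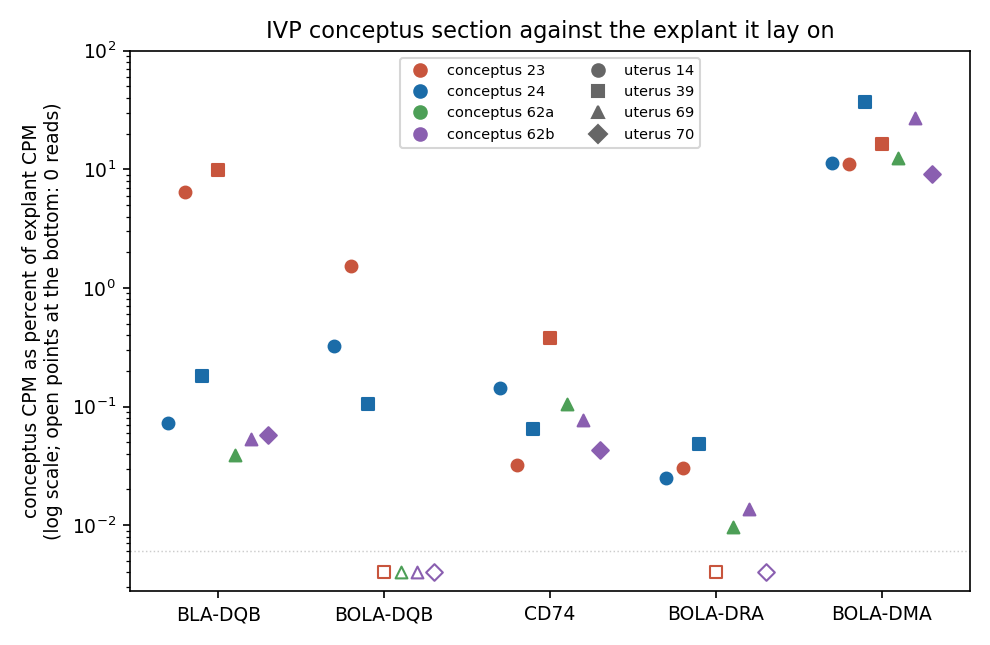
Conceptus section CPM as a percent of the CPM of the explant beneath it, on a log scale, for 5 members in 7 IVP co-cultures; colour marks the conceptus, shape the uterus, and open points at the bottom are 0 reads. BLA-DQB of conceptus 23 stands at 6.46% and 9.82%, far above the other 5 sections, and BOLA-DMA lies between 9.17% and 36.9%.

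The ratio of reads within a library gave the same contrast without scaling between libraries, though the tables were still aligned separately. The explants held 0.120 to 0.435 BLA-DQB reads per CD74 read, with a median of 0.242. IVD co-culture sections held 2.29 to 11.8 with a median of 6.22, above every explant, and the sections of conceptus 23 held 34.3 on uterus 14 and 10.3 on uterus 39. The other 5 IVP co-culture sections were between 0.0588 and 1.21, which overlaps the explants. BOLA-DQB made up 1.74% to 18.0% of the reads of both DQ beta genes in the explants, with both uterus 17 explants at the top, and 0% to 7.32% in IVD co-culture sections.

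How closely the members varied together differed by pair and tissue, given here as a description over libraries that share uteri or conceptuses. Over the 12 explants Pearson's r of log2 CPM was 0.92 for CD74 with BOLA-DRA, 0.86 for BOLA-DRA with BOLA-DMB, 0.87 for CIITA with BOLA-DMA and 0.76 for CD74 with BLA-DQB, while BOLA-DQB ran against CD74 at -0.20 and BOLA-DMA at -0.64. Over the 29 sections it was 0.66 for CD74 with BOLA-DRA, 0.53 for the DQ beta genes (0.18 over the explants), 0.26 for BLA-DQB with CD74 and 0.06 for BLA-DQB with BOLA-DMA. The genes most like BLA-DQB over the sections were IFT52 (r = 0.79), FAM184A (0.78), PTP4A3 (0.77), SPHK1 (0.75) and PRX (0.74), and those most like CD74 were MSI1 (0.85), CRABP2 (0.80), CAVIN1 (0.79), BOLA, a class I gene (0.77), and IGF2BP2 (0.76). Over the explants CD74 was most like CXCL11, a chemokine (0.97), TBX21, a T cell transcription factor (0.96), OPTN (0.92), CD69, a lymphocyte activation marker (0.92), and RIPK2 (0.91). IFNG itself averaged 0.0320 CPM there and had no read in 5 of 12 explants.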

How the data were processed

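Polyadenylated RNA of 29 conceptus sections and 12 endometrial explants had been sequenced from stranded libraries. Per the labels and methods, the authors trimmed reads with Trimmomatic, aligned conceptus reads with HISAT2 and endometrial reads with STAR to the ARS-UCD1.2 build and deposited raw read counts per gene from featureCounts; versions, strand setting and the treatment of multiply mapped reads were not given in the sources used here. The 28 endometrial columns that match no sample here were not used. Nor were columns of the authors' own fold changes, p-values and means.

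The main analysis used edgeR 4.0.16 (R 4.3.3), with genes filtered by filterByExpr at a minimum count of 10 and total of 15, TMM scaling and the quasi-likelihood test on the 4 culture groups together, with Benjamini-Hochberg adjustment over 15942 genes at 0.05. Log2 CPM used a prior count of 1. DESeq2 1.42.0, limma 3.58.1, RLE scaling, no filter, a factor of unwanted variation, summed counts, blocks and leave-outs were alternatives. Sections of one conceptus deviated together (r over 0.1 in 16 of 16 pairs, median 0.588), so the conceptus, named in the titles, pairs the sections. Samples were grouped by title, which for IVP co-culture replicate 1 goes against a treatment field naming medium alone. No pair of libraries was a duplicate by a chi-square test of counts (at least 67.3 per degree of freedom). The batch date of the labels equals the tissue, so tissue and batch cannot be told apart. Scripts were tested on simulated data. For the crossed explants the simulated spread was set below the fitted one, so recovery at the fitted spread was not tested there. The members and gene lists were chosen with earlier results of these data known. Named genes are all members, the 5 genes most correlated with BLA-DQB or CD74, and, of each list, up to 4 of highest mean CPM and those past the threshold; marker, class II and class I genes outside this rule (defining markers, CTSS, CD79A and the like) were named after their values were seen, and some listed genes are not reported here. Floors cover counting error only, while the 95% intervals of differences include the spread between libraries.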

Additional observations from a re-analysis of the deposited data

Results flagged for a closer look

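Of 20 sets of one gene in one culture group 2 held a section far from the others by Dixon's criterion, where chance gives about 1 in 20. CD74 in IVD mono-culture replicate 4, the section of conceptus 26, was the highest of its group at 4.45 CPM. BOLA-DQB in IVP co-culture replicate 2, the section of conceptus 23 on uterus 14, was the highest of its group at 0.0457 CPM, which is 4 reads.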

How the results depend on the processing

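Depth limits BOLA-DRA and BOLA-DQB most, since many sections hold fewer reads than the floor of 3. BLA-DQB stayed higher in co-culture on average in all 42 fits without a library or conceptus, between 1.49 and 3.69 on the log2 scale, and in 9 other settings, between 2.10 and 3.22, where it also passed. Members past the threshold were 1 in the IVD comparison under limma voom and with only the IVD groups fitted, and 2 on average under limma voom and the factor of unwanted variation. Over leave-outs they were 0 to 1 in the IVD comparison, 0 to 1 between IVP and IVD co-culture and 0 to 2 on average. The cause of these shifts was not tested.

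Calls over all genes moved by more than 1.5 times from 1009 in the IVD comparison to 2433 with the factor of unwanted variation, 1927 in DESeq2, 1843 in limma voom and 214 to 1719 over leave-outs, the lowest without conceptus 26 and the highest without IVD co-culture replicate 5. On average they moved from 3006 to 4600 with that factor and to 1580 without conceptus 62b. In the IVP comparison they moved from 0 to 502 in DESeq2, 113 with that factor, 107 with counts summed per conceptus and up to 354 without conceptus 62a. Between IVP and IVD co-culture 4 became 154, 146, 15 (summed) and 2 (limma voom), 0 with only those groups fitted, and 0 to 107 over leave-outs, the highest without IVP co-culture replicate 2.

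With the conceptus as a block BLA-DQB was 2.10 on average (adjusted p = 0.0180, edgeR), and of the members' calls none changed; the block called 206 genes in the IVD comparison and 2132 on average. The replicate numbers of the titles share only a number (4 of 13 pairs over 0.1, median r = -0.317), and as a block they gave 555 calls in the IVD comparison, 1995 on average and 0 between IVP and IVD co-culture.

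Some differences changed sign, none of them past the threshold over all libraries. BOLA-DMA between IVP and IVD mono-culture was 0.15 with the factor of unwanted variation and 0.093 in limma voom, and -0.0075 in the IVP comparison with the replicate number block. CD74 in the difference of changes was -0.12 with that factor, -0.16 summed, -1.01 in limma voom, -0.36 with the conceptus block and -1.84 with the replicate number block, and between IVP and IVD mono-culture 0.70 in limma voom and 0.57 with the replicate number block. BOLA-DQB in the IVP comparison was 0.0018 in limma voom and 0.50 with the conceptus block, and BOLA-DRA between IVP and IVD mono-culture 0.18 in limma voom. Over leave-outs CD74 ran from -0.13 to 2.61 in the IVD comparison, -0.060 to 1.04 in the IVP comparison, -1.37 to 1.69 between mono-cultures and -2.31 to 0.75 in the difference of changes. BOLA-DMA ran from -0.027 to 0.38 in the IVP comparison and -0.15 to 0.11 between mono-cultures, and BOLA-DQB from -1.49 to 0.70 in the IVP comparison and -0.16 to 0.93 on average. The difference of changes ran from -1.09 to 3.37 for BLA-DQB and -1.51 to 0.36 for BOLA-DRA.

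Summing the DQ beta genes was chosen after seeing the data and changed no call. In the crossed explants RLE scaling, no filter and all 12 libraries gave 0 members past the threshold in edgeR, BLA-DQB having uterus adjusted p-values from 0.0717 to 0.264.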

Other observations

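MHC class I genes, which present peptides from inside the cell, were compared as a list beside class II. Of 15 listed genes 1 was higher and 1 lower in the average comparison in edgeR, beside 9.16% of all genes higher and 9.69% lower: CALR, the chaperone calreticulin, by 0.76 ± 0.22 (SE), adjusted p = 0.0176, and PSMB9, an immunoproteasome subunit, by -0.89 ± 0.30, adjusted p = 0.0362. With the conceptus as a block CALR was at 0.78 with an adjusted p of 0.0693 and PSMB9 at -0.63 with an adjusted p of 0.0756, and PSMB9 lost its call in 18 of 42 fits without a library or conceptus. The list's median was 0.28 where that of all genes was -0.04. The class I gene BOLA reached 20.9 CPM in the mono-culture section of conceptus 26, the one with the highest CD74, and at most 4.20 CPM in the other sections.

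Some proteases of the class II pathway differed widely between the tissues, whose tables were normalized separately, and others less. CTSB averaged 636 CPM in the sections and 670 CPM in the explants, and LGMN 80.3 and 264 CPM. CTSS, which trims CD74 in antigen presenting cells, averaged 0.430 CPM in the sections and 199.6 CPM in the explants, and CTSL averaged 768 CPM in the sections and ran from 0.689 to 3.24 CPM in the explants.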
